A study of Mus musculus with 6 samples.

Results

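The miR-290 to miR-295 cluster and the miR-302 cluster are the miRNA genes best known from embryonic stem cells. They were looked at here with background in RNA of the adult mouse aorta in mind. Whether a signal of theirs is background or low expression was not tested. Both clusters are transcribed as long precursors that carry several hairpins, and most of their 3′ strands share a seed, the bases of a miRNA that pair with its targets. In pluripotent cells they are known to favour rapid passage through the cell cycle and to keep differentiation programmes low, and they are shut down as embryonic cells differentiate. All mouse assays named miR-290, miR-291, miR-292, miR-293, miR-294, miR-295 or miR-302 were taken, with any letter or strand, whatever their values. This gave 24 of the 596 mouse miRNA assays of the table, 17 for the miR-290 to miR-295 cluster and 7 for the miR-302 cluster.

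The assays were run on total RNA of whole aortas from 3 EC-Dicerflox and 3 EC-DicerWT mice. Both genotypes carried VE-Cadherin-CreERT2, a tamoxifen-inducible Cre driven by the endothelial VE-cadherin promoter, and both lacked apolipoprotein E (Apoe-/-). They differed in Dicer1, which was flox/flox in EC-Dicerflox and WT/WT in the EC-DicerWT littermates. All mice received tamoxifen (2 mg per 20 g body weight on 5 days). They were 6 to 8 weeks old when the high-fat diet began and were fed it for 4 weeks before the aorta was taken. The labels give the mice as male and the methods give them as female. Dicer, the enzyme that cuts miRNA hairpins, was deleted by design in endothelial cells (ECs) only, while RNA of smooth muscle cells and leukocytes entered every value. Less RNA per cell and fewer cells of a type cannot be told apart in such samples, and Dicer1 mRNA was not analysed here.

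Each value is a CT, the PCR cycle at which the fluorescence of an assay crosses its threshold. A higher CT means less template, each cycle of complete amplification doubles the template, and a well without a signal is listed at a CT of 40. A well under 40 is called a signal below, which says that the assay crossed its threshold and not that the named miRNA was present. CT values of different assays also depend on the efficiency of each assay, so that no level is compared between miRNAs as a number of molecules. The style of the assay numbers parts the table into 2 sets, set A with 335 and set B with 261 mouse miRNAs. Of the members, 11 lie in set A and 13 in set B.

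MiRNAs of cell types found in the aorta had signals in every sample. This does not by itself identify the tissue, because miR-122 of liver and miR-9 of neurons had them too. The smooth muscle miRNAs miR-143 and miR-145 had CT values from 14.7 to 18.1, the endothelial miR-126-3p and miR-126-5p from 17.1 to 23.0, and the leukocyte miRNAs miR-142-3p, miR-150 and miR-223 from 19.0 to 24.2, each in all 6 samples. The number of miRNAs with a signal ranged from 375 to 415 per sample and was lowest in EC-Dicerflox replicate 3. The control RNAs were U6 and snoRNA135. Their mean CT ranged from 18.7 to 20.2 and was latest in EC-Dicerflox replicate 3 (20.2) and EC-DicerWT replicate 3 (19.6). A plant miRNA that mouse tissue lacks had a signal in 1 of its 12 wells, at a CT of 39.6.

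The sequences below are shown because 4 of the 5 members that gave a signal, miR-294, miR-291a-3p, miR-295 and miR-302b, share a seed. They are mature mouse miRNAs from RefSeq (assembly GRCm38.p6), read 5′ to 3′, with the seed (bases 2 to 8) in capitals. A sequence was found for 20 of the 24 member assays, 3 under the same name and the others through the current name of an older one. Among the members with a name that gives no arm, the unstarred name was matched to the 3′ strand and the starred name to the 5′ strand. The assays miR-290 and miR-302a and both assays of miR-292-3p had none. The first 5 share the seed AAGUGCU, the next 4 are 3′ strands with other seeds, and the last 3 are 5′ strands.

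miR-294: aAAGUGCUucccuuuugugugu
miR-291a-3p: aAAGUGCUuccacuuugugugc
miR-295: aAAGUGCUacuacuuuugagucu
miR-302b: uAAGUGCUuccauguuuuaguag
miR-302d: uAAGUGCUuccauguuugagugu
miR-302c: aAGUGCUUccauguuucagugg
miR-290-3p: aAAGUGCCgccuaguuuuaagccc
miR-291b-3p: aAAGUGCAuccauuuuguuugu
miR-293: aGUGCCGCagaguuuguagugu
miR-294*: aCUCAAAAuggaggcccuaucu
miR-292-5p: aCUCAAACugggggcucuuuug
miR-302b*: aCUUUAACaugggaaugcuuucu

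In the RefSeq gene table of the same assembly, the miR-290 to miR-295 cluster holds 9 hairpin genes within 2216 bases of chromosome 7, in a stretch that overlaps Nlrp12 and D7Ertd143e. The miR-302 cluster holds 5 hairpin genes, Mir302b, Mir302c, Mir302a, Mir302d and Mir367, within 580 bases of chromosome 3, and overlaps Larp7, which encodes a protein of the 7SK RNA complex, and Gm51018. No positions are given, because the build behind the deposited names is not stated. MiR-294 and miR-291a-3p differ at 3 positions, written from miR-291a-3p to miR-294 and counted from the 5′ end as A12C, C13U and C22U. The motif AAGUGC stood within the first 8 bases for 9 member assays, 4 of them with a signal, and of 1.04% of the 1738 mature sequences in the table.

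A signal was rare in these clusters. Of the 24 assays, 5 (20.8%) crossed their threshold in 1 or more samples, against 461 of 596 (77.3%) of all mouse miRNA assays. In all 6 samples a signal was seen for 1 member (4.17%), miR-294, and for 350 miRNAs (58.7%) overall. By wells, 13 of 144 member wells (9.03%) and 2408 of 3576 wells of all miRNAs (67.3%) had a signal. The remaining 19 members were at 40 in every sample.

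The signals lay in 1 set of assays. In set A, 5 of 11 members (45.5%) and 286 of 335 miRNAs (85.4%) had a signal in at least 1 sample. In set B, 0 of 13 members did, against 175 of 261 miRNAs (67%). Set B holds all 6 starred members, miR-293*, miR-294*, miR-295*, miR-302a*, miR-302b* and miR-302c*, and all 36 of their wells were at 40. The starred strands of miR-294, miR-295 and miR-302b, cut from the same hairpins as 3 of the members with a signal, were thus at the limit in every sample. Over all starred strands in the table, 47 of 64 (73.4%) had a signal in at least 1 sample. Set B also holds miR-290, miR-290-5p, miR-291-3p, miR-291-5p, miR-291b-3p, miR-292-5p and the second assay of miR-292-3p. In set A, the members without a signal were miR-290-3p, miR-291b-5p, miR-293, miR-302a, miR-302c and miR-302d.

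**Figure D1:**
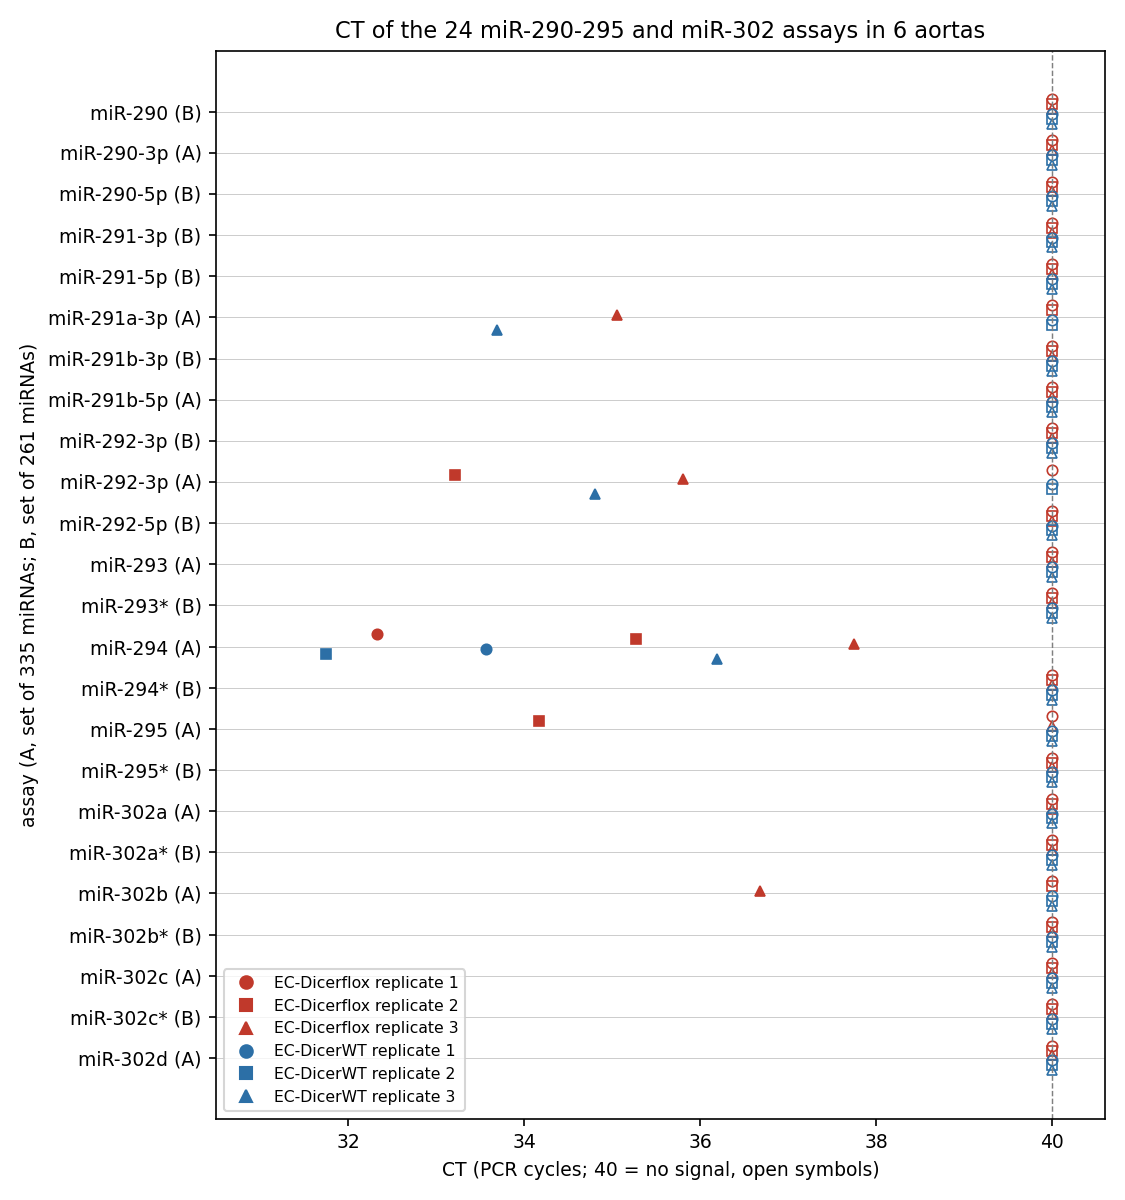
CT in PCR cycles (horizontal axis) of each of the 24 assays (rows) in the 6 aortas, with red for EC-Dicerflox, blue for EC-DicerWT, a symbol for each replicate number and open symbols for wells without a signal at 40. The 13 filled symbols belong to 5 assays of set A, and miR-294 is the row with a signal in all 6 samples.

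MiR-294, one of the most abundant miRNAs of mouse embryonic stem cells, was the member with a signal in every sample. Its CT was 32.3, 35.3 and 37.8 in EC-Dicerflox replicates 1, 2 and 3, and 33.6, 31.7 and 36.2 in EC-DicerWT replicates 1, 2 and 3. The earliest and the latest well thus came from different genotypes, the order of the 6 samples alternated between them, and both replicate 3 samples were late. The mean CT over the 6 samples was 34.5, and 10 of the 350 miRNAs with a signal in all samples (2.86%) had a later mean.

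The spread of miR-294 was wide. Its CT ranged over 6.0 cycles across the 6 samples, while the mean of the control RNAs ranged over 1.52 cycles. After subtraction of each sample's control RNA mean (delta CT), its values were 13.44, 16.57 and 17.53 in EC-Dicerflox and 14.75, 12.80 and 16.59 in EC-DicerWT replicates 1, 2 and 3. The groups overlapped, and replicate 3 was the latest of each group after normalization too. The SD of delta CT was 2.14 cycles in EC-Dicerflox and 1.89 cycles in EC-DicerWT (n = 3 each), while the median SD over the 350 miRNAs was 0.433 and 0.449 cycles. Among the 37 miRNAs of these with a mean CT of 32 or later, the median SD was 1.65 and 1.26 cycles, and 4 and 10 of them had a larger SD than miR-294.

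MiR-292-3p and miR-291a-3p, processed from neighbouring hairpins of the same cluster, gave signals in some samples. The set A assay of miR-292-3p had a CT of 33.2 and 35.8 in EC-Dicerflox replicates 2 and 3 and of 34.8 in EC-DicerWT replicate 3, and was at 40 in the other 3 samples. The set A assay of miR-291a-3p had a CT of 35.1 in EC-Dicerflox replicate 3 and of 33.7 in EC-DicerWT replicate 3, and was at 40 in the other 4. Both genotypes thus held wells with and without a signal, and the 2 miRNAs shared the replicate 3 samples. Of all 596 assays, 1 had the pattern of samples of miR-291a-3p, which is this assay, and 2 had that of miR-292-3p, this assay included.

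The same miRNAs were at 40 in all samples in set B. The set B assay of miR-292-3p gave 0 signals in 6 wells against 3 in set A, and the set B assay named miR-291-3p, the older name of miR-291a-3p, gave 0 against 2. In all, 13 miRNA names occurred in both sets, and 7 of these (miR-10b, miR-322, miR-325, miR-467a, miR-467b, miR-487b and miR-543) had the same number of samples with a signal in each, which is 0 for miR-325 and 6 for the others. Of the 6 that differed, miR-217 and miR-449b had a signal in set B alone, in 4 and 6 samples, and miR-370 in set A alone, in 6 samples, at CT values from 26.6 to 30.3. Whether the assays of a name detect the same sequence was not tested.

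The other 2 members with a signal had it in 1 sample each. MiR-295, the last hairpin of its cluster, had a CT of 34.2 in EC-Dicerflox replicate 2 and 40 elsewhere. MiR-302b, the first hairpin of the miR-302 cluster, had a CT of 36.7 in EC-Dicerflox replicate 3, the 1 signal of the 42 wells of that cluster. A single signal of this kind was seen for 29 miRNAs in all, 9 of them in EC-Dicerflox replicate 2 and 3 in EC-Dicerflox replicate 3. MiR-367, the other hairpin of the miR-302 cluster, which the choice by number left out, was at 40 in all 6 samples.

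The member wells with a signal were late. Their CT values ranged from 31.7 to 37.8 with a median of 34.8, and 6 of the 13 (46.2%) were at 35 or later. Over all miRNAs the median of wells with a signal was 27.9, 8.35% were at 35 or later, and 78.2% of them were earlier than the earliest member well. The 111 assays with a signal in 1 to 5 samples had a median CT of 34.7 in their wells with a signal, with 46.8% of these at 35 or later. All 13 member wells were earlier than the plant miRNA's well at 39.6, as were nearly all wells with a signal. Of 2408 such wells over all miRNAs, 2346 were under a CT of 38.

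**Figure D2:**
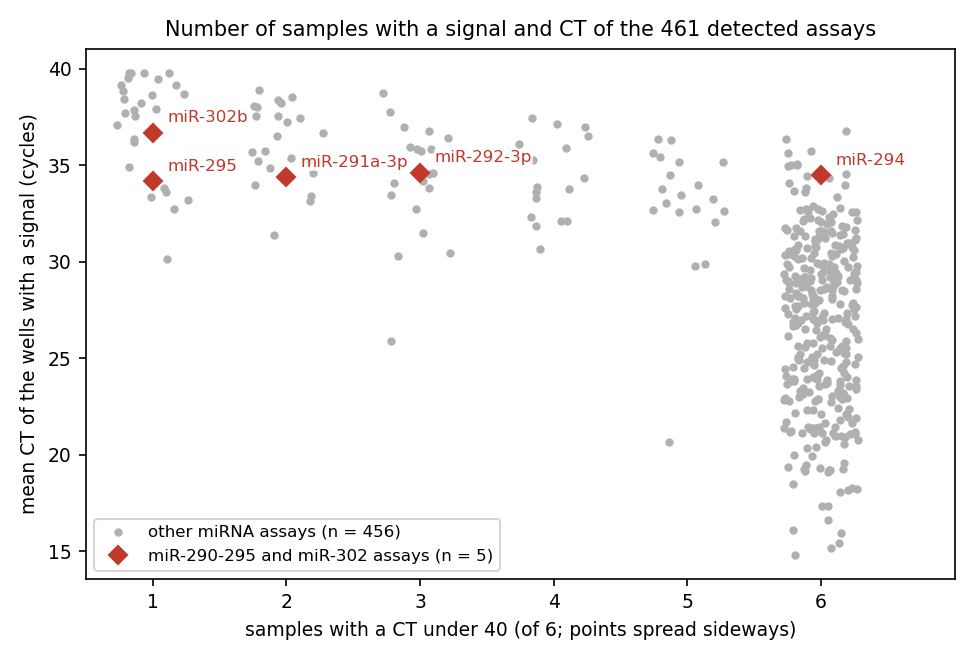
Mean CT of the wells with a signal (vertical axis, cycles) against the number of samples with a CT under 40 (horizontal axis) for each of the 461 detected assays, with the 5 members in red. The 4 members with a signal in 1 to 3 samples lie among the other assays of the same columns, and miR-294 lies near the top of the column of 6 samples.

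The signals of the members were spread unevenly over the samples. EC-Dicerflox replicates 1, 2 and 3 had 1, 3 and 4 of the 24 assays with a signal, and EC-DicerWT replicates 1, 2 and 3 had 1, 1 and 3. By genotype this is 8 of 72 wells in EC-Dicerflox and 5 of 72 wells in EC-DicerWT, against 66.8% and 67.8% of the wells of all miRNAs. EC-Dicerflox replicate 3, with the fewest miRNAs detected overall (62.9% of 596, against 67.4% to 69.6% in the other 5 samples), had the most member signals. The 4 partly detected members gave 3 signals in that sample, while of the 111 partly detected assays 25 (22.5%) gave a signal there, against 46.8% to 58.6% in the other samples. EC-Dicerflox replicate 1 and EC-DicerWT replicates 1 and 2 had a signal for miR-294 alone. The control RNAs were late in both replicate 3 samples (20.2 and 19.6), which gave 4 and 3 member signals, but EC-Dicerflox replicate 2, with 3 member signals, had the earliest control RNAs (18.7). The part of input in these counts was not tested. Without both replicate 3 samples, 3 members (miR-292-3p, miR-294 and miR-295) and 6 of 96 wells had a signal.

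**Figure D3:**
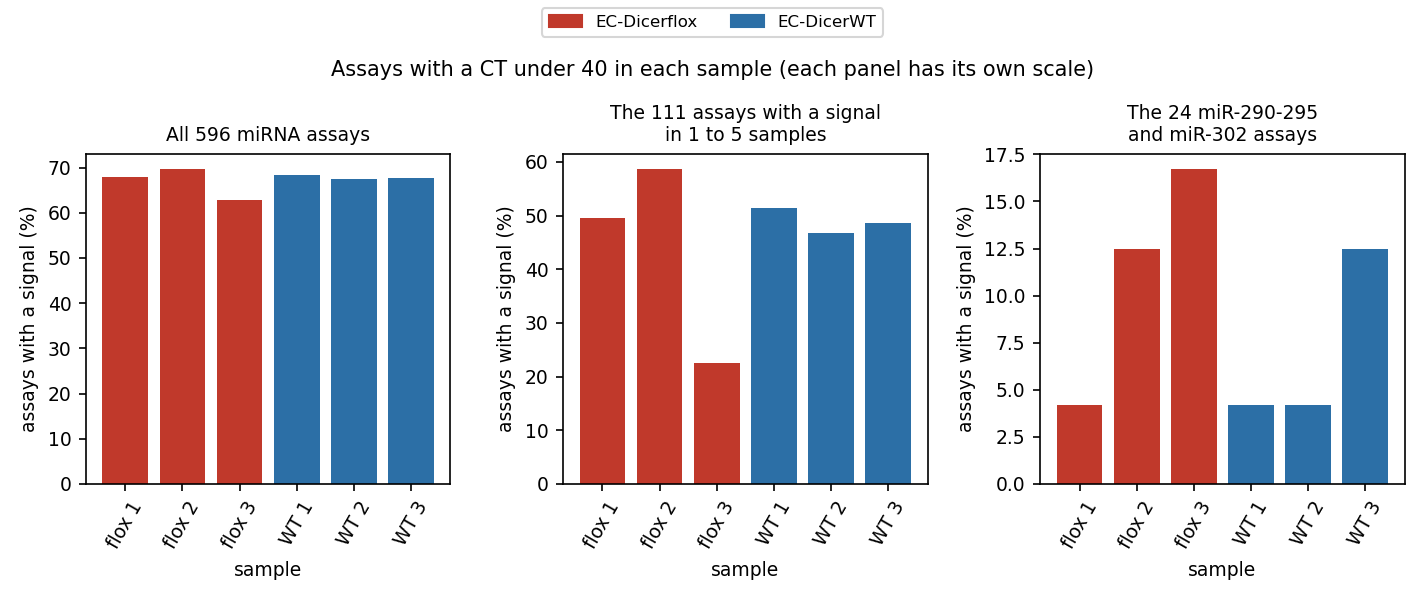
Percentage of assays with a CT under 40 (vertical axes, each with its own scale from 0) in each of the 6 samples, for all 596 miRNA assays, for the 111 assays with a signal in 1 to 5 samples and for the 24 members. EC-Dicerflox replicate 3 has the lowest bar in the first 2 panels (62.9% and 22.5%) and the highest in the third (16.7%).

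The 2 genotypes overlapped for each of the 5 members with a signal, but this is informative for miR-294 alone. MiR-291a-3p, miR-292-3p, miR-295 and miR-302b had wells without a signal in both genotypes, all entered at the same CT. Only the control RNAs could have kept the groups of these members apart. No member had an adjusted p-value under 0.05 in limma, a linear model whose variance is moderated over the 461 miRNAs tested, and 0 of 461 did overall (0%). At an unadjusted limma p-value under 0.05 there were 0 of the 5 members and 14 of 461 miRNAs (3.04%). Groups without any overlap in delta CT were seen for 0 of the 5 members and for 48 of 461 miRNAs (10.4%). These shares are not compared, because most of the 5 members could not separate by their own signals. The other 19 members had no signal to compare.

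For miR-294, delta CT was 15.8 ± 2.14 cycles (SD, n = 3) in EC-Dicerflox and 14.7 ± 1.89 cycles (SD, n = 3) in EC-DicerWT. The log2 fold change was -1.13 with a standard error of 1.45 and a 95% interval from -4.79 to 2.52. Single samples moved it by more than 1.5 times, and it was -2.34 without EC-Dicerflox replicate 1, -0.29 without EC-Dicerflox replicate 3, -0.18 without EC-DicerWT replicate 2 and -2.07 without EC-DicerWT replicate 3. With every CT above 35 set to 35, which applies to 3 of its 6 wells, it was -0.52. Its adjusted p-value was 0.923 by limma with Benjamini-Hochberg adjustment, and an exact permutation test over the 6 samples gave a two-sided p = 0.6, where 3 samples against 3 cannot go below 0.1. The interval holds both a decrease and an increase, and changes within it could not be told from no change with this spread. The standard error of miR-294 compares with a median of 0.53 over all 461 miRNAs.

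The other 4 members were compared with wells at the limit, and their estimates depend on the value of 40 given to these. The log2 fold changes were -0.30 for miR-291a-3p (standard error 2.76), 2.08 for miR-292-3p (2.48), 2.10 for miR-295 (1.51) and 1.26 for miR-302b (1.41). With every CT above 35 set to 35 they became -0.28, 0.68, 0.43 and 0.15. The estimate of miR-291a-3p changed sign without EC-Dicerflox replicate 1 (0.71), EC-Dicerflox replicate 2 (0.81) or EC-DicerWT replicate 3 (2.04) and was -2.43 without EC-Dicerflox replicate 3, while that of miR-292-3p lay between 0.80 (without EC-Dicerflox replicate 2) and 4.10 (without EC-Dicerflox replicate 1). Adjusted p-values of these lay between 0.923 and 0.982 (limma), and the exact permutation tests of miR-291a-3p and miR-292-3p gave a two-sided p = 0.6 each. For miR-295 and miR-302b all 3 EC-DicerWT wells and 2 of 3 EC-Dicerflox wells were at 40, so that each estimate rests on 1 well and is not a measured difference between the groups.

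The miRNAs of the miR-17 seed family carry AAAGUGC as bases 2 to 8 and so share 6 bases of the pluripotency seed. They are relatives with early signals in the same samples. They come from the miR-17 cluster and its paralogs, which act in proliferating cells of many tissues. A pair of them is shown for comparison with the sequences above.

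miR-17: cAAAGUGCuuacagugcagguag
miR-93: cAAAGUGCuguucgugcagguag

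All 6 miRNAs of this list (miR-17, miR-20a, miR-20b, miR-93, miR-106a and miR-106b) had a signal in all 6 samples, at CT values from 20.6 to 26.2. MiR-17 had a CT of 21.2, 20.6 and 22.4 in EC-Dicerflox and 20.9, 21.0 and 22.1 in EC-DicerWT replicates 1, 2 and 3. The delta CT of the 6 relatives ranged over 0.65 cycles (miR-17) to 1.69 cycles (miR-106b) across the samples, against 4.73 cycles for miR-294. MiR-294 was much later, with a mean CT of 34.5, and late miRNAs had a wider spread in these samples, as given above. The ranges thus set early assays against a late one. The log2 fold changes of the 6 relatives lay between -0.08 for miR-20b and 0.19 for miR-20a. None of these 6 differed at an unadjusted limma p-value under 0.05, with adjusted values from 0.923 to 0.999. Past the seed the families part, and miR-17 and miR-294 have an edit distance of 10 (bases substituted, inserted or deleted).

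**Figure D4:**
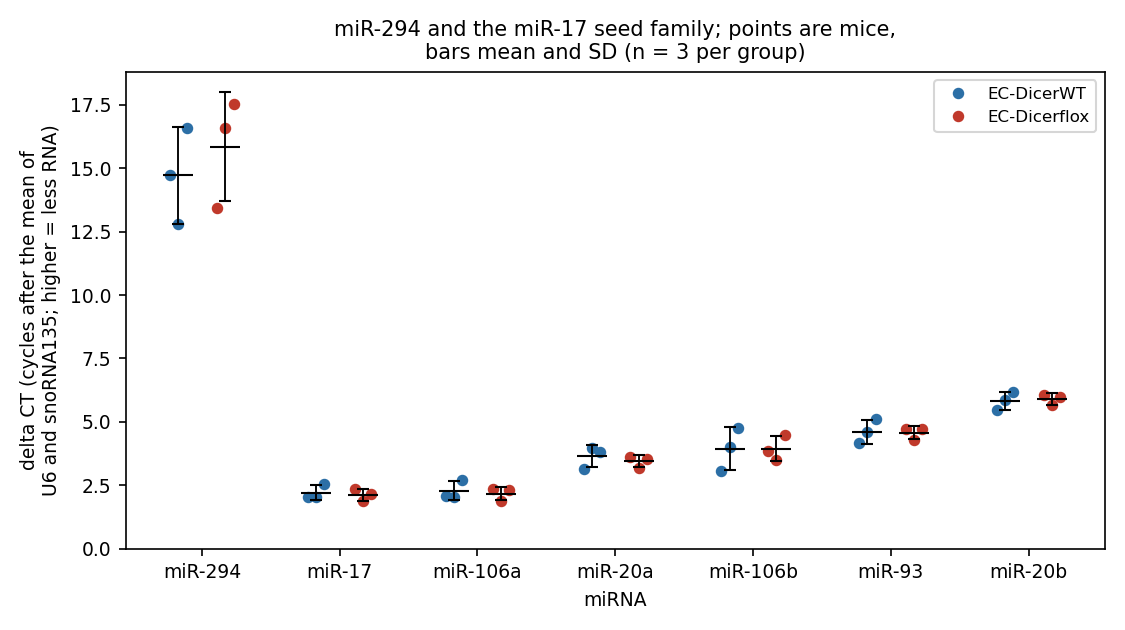
Delta CT in cycles (vertical axis, a higher value is less RNA) of miR-294 and of the 6 miRNAs of the miR-17 seed family, with a point for each mouse, blue for EC-DicerWT and red for EC-Dicerflox, and bars for the mean and SD (n = 3 per group). The points of miR-294 lie between 12.80 and 17.53 and the groups overlap, while the points of the relatives lie closer together. The relatives have earlier CT values, and late assays had a wider spread in these samples.

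MiRNAs known from other tissues gave mixed results. MiR-122, a liver miRNA, had a signal in all 6 samples, at CT values from 20.5 to 28.0, and the neuronal miR-9 had one in all 6 samples too, at 25.7 or earlier. The neuronal miR-124 had a signal in 3 samples, from 25.9 in EC-DicerWT replicate 3 to 33.6 in EC-Dicerflox replicate 2. Of 21 miRNAs of testis and germ line, most of them from a cluster on the X chromosome, 9 (42.9%) had a signal in at least 1 sample and 4 in all 6, namely miR-465c-5p, miR-741, miR-878-3p and miR-883b-5p. The other 12 were at 40 in every sample. Their wells with a signal had a median CT of 32.7, and 31 of 126 wells (24.6%) had one. Unlike the pluripotency members, this list holds no starred strands. Of those from the same hairpins in the table, miR-463* had a signal in 5 samples, miR-470* in 4, miR-881* in 3 and miR-742* in 0. The lists are thus not built alike, and the difference between them was not tested.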

How the data were processed

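RNA of 6 aortas (3 EC-Dicerflox, 3 EC-DicerWT) was reverse-transcribed and pre-amplified with rodent Megaplex pools and run on TaqMan array cards, per the methods. The authors deposited raw CT values, which are on an inverse log2 scale of PCR cycles and not normalized, with 40 for wells without a signal. Threshold and baseline settings are not given in the sources used here. The 6 columns were matched to samples by name, which left 0 columns without a sample. Sets A and B are assay numbers of 7 and 6 digits.

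Delta CT was the CT minus the mean of 4 control values (U6 and snoRNA135 of both sets). The groups were compared with limma 3.58.1 in R 4.3.3 (lmFit, eBayes) over the 461 miRNAs that had a signal (CT under 40) in any sample, with wells at 40 entered as 40 and Benjamini-Hochberg adjustment over all of them. Log2 fold changes are delta CT of EC-DicerWT minus that of EC-Dicerflox. For single miRNAs an exact two-sided permutation test over the 20 arrangements of the samples was added. The limma fit was checked on simulated normal values without a limit at 40, so the check does not cover members with wells at 40. The permutation test was not simulated. Precision is limited by the number of arrays, and the labels call the replicates biological.

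Every member is accounted for, with its CT in each sample where any was under 40. Members, lists and tests were chosen with earlier results of these data known. The alternatives were other limits of detection, control RNAs, references, filters and moderation, a block for the replicate number, and the omission of each sample in turn. Controls of the same set, and leaving out both replicate 3 samples, were added after seeing the data.

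Deviations from the group means of samples with the same number correlated at 0.15, 0.224 and 0.431 over 350 miRNAs, each over 0.1, so the numbers were treated as pairs in the blocked fit. Samples with different numbers correlated at 0.285 (EC-Dicerflox 1 with EC-DicerWT 2) and 0.117 (EC-Dicerflox 2 with EC-DicerWT 1), so numbers 1 and 2 were not set apart, and at -0.353 to -0.185 in the other cases. No source says that a number marks a litter or a day.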

Additional observations from a re-analysis of the deposited data

How the results depend on the processing

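Members with a signal in at least 1 sample were 5 at a CT under 40 and under 38 and 4 under 35. With at least 2 samples asked for they were 3, with all samples 1, and without both replicate 3 samples 3 (12.5%, against 76% of all miRNAs). Leaving out each sample in turn gave 4 to 5. Member wells with a signal fell from 13 to 7 with a CT under 35 and to 6 without both replicate 3 samples, and were 9 to 12 with each sample left out. Over 18 alternatives, 0 members had an unadjusted or adjusted p-value under 0.05. The log2 fold change of miR-294 kept its sign in all 18, from -2.34 to -0.18, with unadjusted p-values from 0.126 to 0.91. With the replicate block no call of a member changed. The miR-294 estimate was -1.13 by construction with this block, an ordinary linear model and trend and robust moderation. The same holds with limit wells left missing and with the filter for a signal in all samples. The sign could not change in these settings. MiR-291a-3p (-0.30) turned to 0.71, 0.81 and 2.04 without EC-Dicerflox replicate 1, EC-Dicerflox replicate 2 and EC-DicerWT replicate 3, and its range with each sample left out was -2.43 to 2.04. MiR-292-3p, miR-295 and miR-302b kept their sign wherever they could be fitted, from 0.68, 0.43 and 0.15 with CT above 35 set to 35 to 4.10 and 3.26 (both without EC-Dicerflox replicate 1) and 2.10 (without EC-Dicerflox replicate 2). For miR-295 and miR-302b the sign is fixed by their 1 well with a signal. With each sample left out, miR-292-3p ranged from 0.80 (without EC-Dicerflox replicate 2) to 4.10. Without EC-Dicerflox replicate 1, the groups of 1 member, miR-295, did not overlap, which rests on the control RNAs because 4 of its 5 wells were at 40. Otherwise this count was 0. The 14 miRNAs under an unadjusted p-value of 0.05 overall became 9 with U6 alone, 24 with an ordinary linear model and 12 (without EC-DicerWT replicate 3) to 22 (without EC-Dicerflox replicate 1) with each sample left out. The 4 members that were not under 40 in all samples could not be fitted with that filter. Each member assay has 1 value per sample in the table, so the repeatability of a late signal within a sample is not known.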
